A study of Mus musculus with 4 samples.

Results

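The genes described here are 10 members of the steroid hormone pathway: Star, Cyp11a1, Cyp17a1, Cyp21a1, Hsd3b1, Hsd3b6, Hsd17b3, Fdx1, Fdxr and Por. They were matched by gene symbol, and all 10 were found among the 55450 genes measured. The data were single-cell transcriptomes of whole mouse testis made with droplets and the 3′ v3 chemistry, with 2 libraries from testes under a high-fat diet (HFD 1 and HFD 2) and 2 under a normal diet (ND 1 and ND 2). The labels give the tissue and the diet. Strain, age, length of feeding and the number of mice per library are not given in the sources used here. Where libraries of a diet are technical repeats, the p-values below measure only the spread between libraries.

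Testosterone is made from cholesterol by Leydig cells, which lie between the seminiferous tubules. Cholesterol is carried into the mitochondrion and loses its side chain there, and the product is then converted step by step in the endoplasmic reticulum. The cytochrome P450 enzymes of the pathway need electrons, which reach them through ferredoxin in the mitochondrion and through P450 oxidoreductase in the endoplasmic reticulum.

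After filtering, 55007 cells remained, between 13155 and 14503 per library, with a median of 5511 to 5936.5 unique molecular identifiers (UMIs) per cell. Pairs of libraries shared 42 to 65 cell barcodes. Clustering without the members and the other steroid genes gave 8 named classes with at least 50 cells in every library. Leydig-like cells were 2 clusters with 1184 and 168 cells, and the smaller was led by the nuclear RNAs Malat1, Meg3 and Neat1. Of the 5 Leydig markers, Insl3, Lhcgr, Fabp3 and Prlr were present in every library, summing to 16267 to 19583 CPM (counts scaled to a fixed total per sum), and Csn3 was at 0 UMIs in these cells. Leydig-like cells made up 1.89% and 2.03% of the cells of HFD 1 and HFD 2, against 2.85% and 3.00% in ND 1 and ND 2. The log2 ratio of HFD to ND shares was -0.58 (SE 0.0569, adjusted p = 0.00289 by edgeR's quasi-likelihood test), with both HFD shares the lower. The call was lost without ND 1 (-0.62, edgeR adjusted p = 0.0591), when cells were taken by a gate on the markers (-0.38, edgeR adjusted p = 0.0691), when clustering used the steroid genes (-0.42, edgeR adjusted p = 0.134) and at Leiden resolution 2 (-0.38, edgeR adjusted p = 0.133). In the last 2 definitions HFD 1 gained 81 and 105 cells that were in no named class here, against 2 to 57 in the other libraries. The main edgeR fit of shares also called round-spermatid-like (-0.34, adjusted p = 0.00116) and Sertoli-like cells (-0.20, adjusted p = 0.0428) lower in HFD. The Sertoli-like call held with doublets kept (-0.20, edgeR adjusted p = 0.0255). It was lost with the gate (-0.20, edgeR adjusted p = 0.0691), with the steroid genes (-0.19, edgeR adjusted p = 0.0972) and at resolution 2 (-0.21, edgeR adjusted p = 0.107). Spermatocyte-like cells were higher in HFD in the main fit (0.29) and were not called (edgeR adjusted p = 0.0741).

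Most of the pathway was concentrated in these few cells. Leydig-like cells supplied 81.3% to 95.5% of all UMIs of Star, Cyp11a1, Hsd3b1, Hsd3b6, Cyp17a1 and Hsd17b3 in every library. The electron carriers were spread more widely. Fdxr had 43.9% to 54.3% of its UMIs in Leydig-like cells, Por 13.4% to 23.5% and Fdx1 7.50% to 15.2%. Spermatocyte-like cells supplied 55.5% to 58.6% of Fdx1 UMIs in HFD and 46.7% to 48.9% in ND. Round-spermatid-like cells supplied 34.4% to 40.4% of Por UMIs. Cyp21a1 had 61.9% and 58.5% of its UMIs in Leydig-like cells of HFD 1 and HFD 2, against 25.9% and 31.7% in ND 1 and ND 2.

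**Figure D1:**
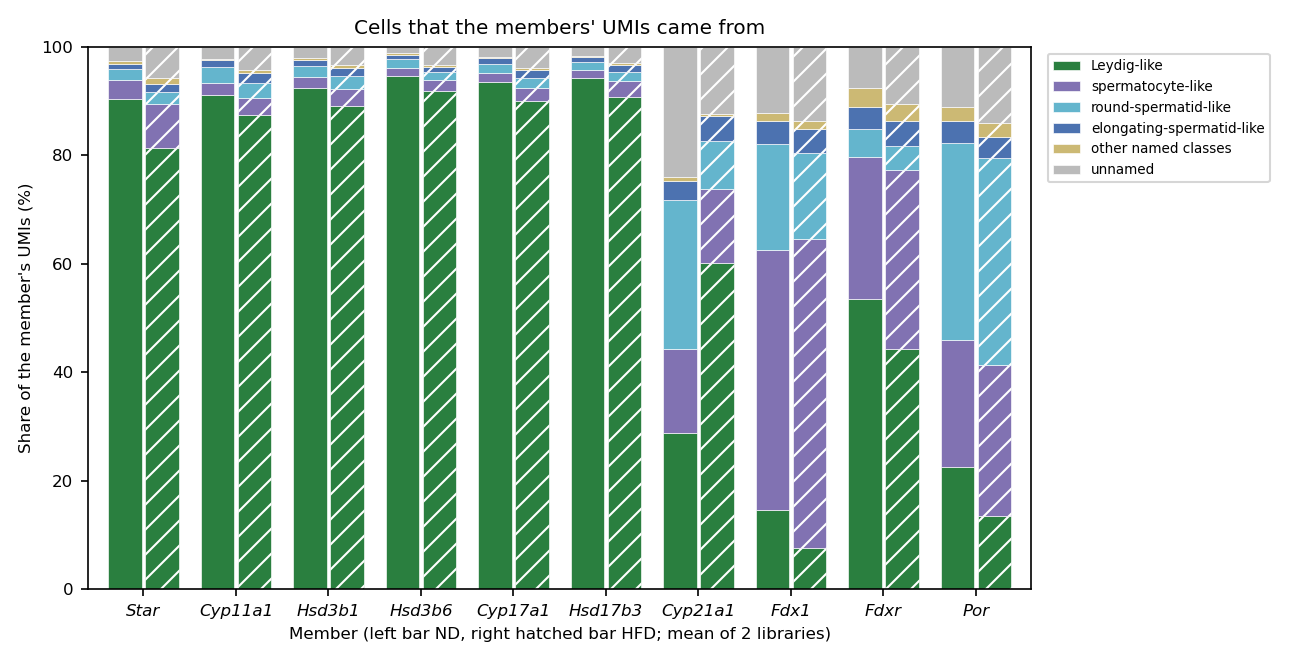
Share of each member's UMIs (%, mean of 2 libraries per diet) that came from each cell class, with ND on the left and HFD hatched on the right of each pair. Leydig-like cells supply over 81.3% of 6 members in both diets, whereas they supply at most 15.2% of Fdx1 and 23.5% of Por.

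Levels per class are given in CPM of the class's summed UMIs, averaged over 4 libraries. The counts come from 3′ ends and were not scaled by length. Leydig-like cells were set against each of the 7 other classes in 1 edgeR fit with library as a block. In 37 combinations the member passed the low-count filter in the other class too, and it was called higher in Leydig-like cells in each of them. In the remaining combinations the member entered the fit through its Leydig-like counts, which fixes the direction, so those are a description only. Of all 15397 genes in that fit, 30.8% were called higher in Leydig-like than in Sertoli-like cells, 17.8% against macrophage-like, 22.6% against lymphocyte-like, 19.5% against fibroblast-like, 41.4% against spermatocyte-like, 40.3% against round-spermatid-like and 39.6% against elongating-spermatid-like cells. The members took no part in the clustering, but genes that vary with them did.

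For the enzymes, the levels in the other named classes were low. Cyp17a1 averaged 4471 CPM in Leydig-like cells and 3.55 to 28.1 CPM in the 7 other named classes. Its fold over the other classes ran from 157 against macrophage-like cells to 1071 against spermatocyte-like cells. The fold of 157 is a description only, since Cyp17a1 did not pass the low-count filter in macrophage-like cells. Cyp11a1 averaged 2461 CPM in Leydig-like cells and 2.55 to 23.9 CPM in the 7 other named classes. Star averaged 1503 CPM there, and its next levels were 31.1 CPM in fibroblast-like and 12.1 CPM in macrophage-like cells. The libraries of those classes overlapped for Star (20.6 to 41.6 CPM and 3.64 to 27.8 CPM). Cells in no named class were 40.9% and 37.0% of HFD 1 and HFD 2, and 34.6% and 34.5% of ND 1 and ND 2. Of their 6 clusters, that with the most Cyp17a1 had 1944 cells and a median of 1695 UMIs, with Cyp17a1 at 73.0, 73.0, 48.1 and 83.1 CPM and Cyp11a1 at 43.5, 53.5, 16.04 and 40.7 CPM in HFD 1, HFD 2, ND 1 and ND 2.

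Droplets also carry free RNA, whose part in the levels of the other classes was not tested. The summed Leydig markers were 16.1 to 26.2 CPM in the 3 germ cell classes and 82.7 to 560 CPM in macrophage-like cells. Relative to Cyp17a1, the spread of ratios across classes differed by member. Hsd3b1 was 0.208 of Cyp17a1 in Leydig-like cells and 0.224 to 0.280 in the 3 germ cell classes, whereas Star was 0.344 of Cyp17a1 in Leydig-like cells and 0.335, 0.439 and 0.922 in elongating-spermatid-like, round-spermatid-like and spermatocyte-like cells. The ratio for Fdx1 was 0.335 in Leydig-like cells and 10.1 to 74.1 in the germ cell classes.

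**Figure D2:**
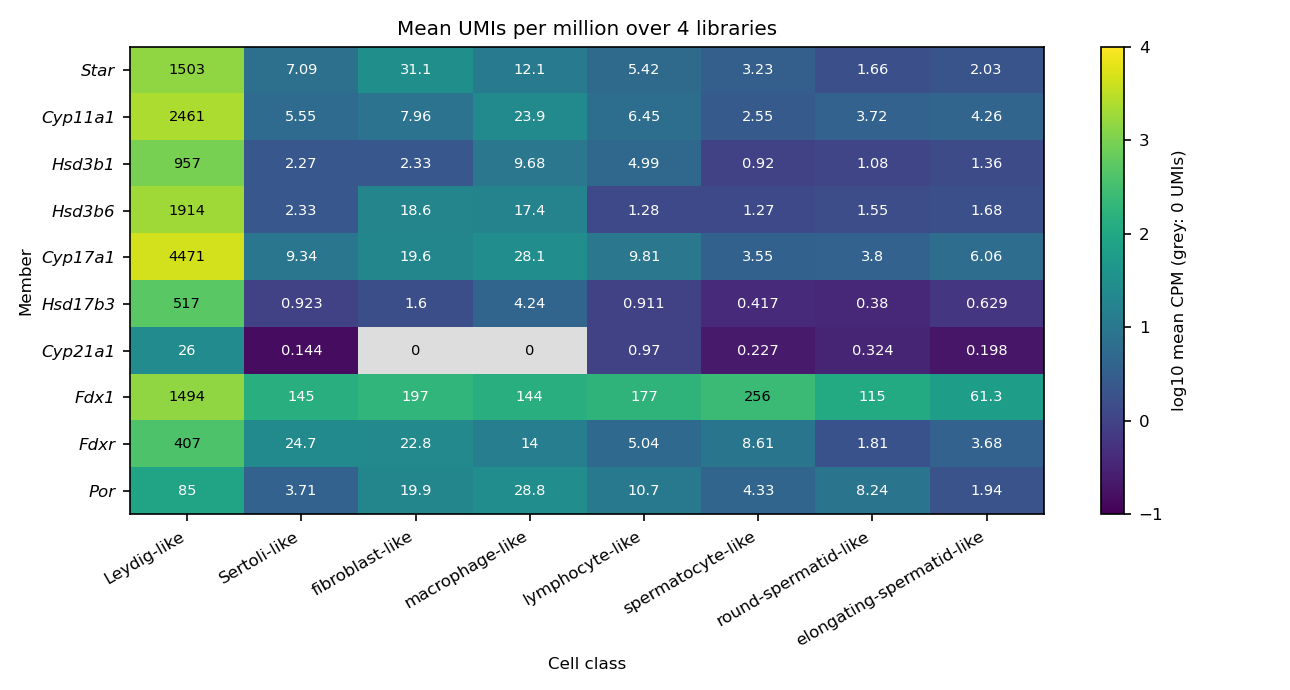
Mean CPM over 4 libraries for each member (rows) in each named class (columns), coloured on a log10 scale, with grey for 0 UMIs. The left column, Leydig-like cells, is the highest for every member, and Fdx1 stays above 61 CPM in all classes.

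Among the electron carriers, Fdx1, the ferredoxin that passes electrons to mitochondrial P450 enzymes, averaged 1494 CPM in Leydig-like and 256 CPM in spermatocyte-like cells. The fold between them was 4.88, the smallest of its 7 comparisons, and that against macrophage-like cells was 10.1. Spermatocyte-like libraries (247 to 264 CPM) lay above those of every other germ cell class. Fdxr, the reductase that loads ferredoxin, averaged 407 CPM in Leydig-like cells, 24.7 CPM in Sertoli-like and 22.8 CPM in fibroblast-like cells, and the last 2 overlapped between libraries. Por, which supplies microsomal P450 enzymes such as Cyp17a1 and Cyp21a1, averaged 85.0 CPM in Leydig-like, 28.8 CPM in macrophage-like and 19.9 CPM in fibroblast-like cells. Within the spermatocyte-like class Por ranged from 0.903 CPM in one cluster to 30.6 CPM in another that also scored high for spermatogonia markers.

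Between the diets, the members of the pathway did not move together in Leydig-like cells. Star, Cyp17a1, Fdx1 and Por fell in HFD, Cyp21a1 rose, and the other 5 members did not pass the test. That is 5 of 10 members called, where 2.69% of all 11913 genes tested were called by edgeR at an adjusted p under 0.05 (1.53% lower and 1.17% higher). For 9 of the 10, all but Cyp11a1, the HFD and ND libraries did not overlap, as was so for 45.9% of all genes tested. The median log2 ratio was -0.31 over the members and -0.0034 over all genes tested. Values in the next paragraphs are CPM after edgeR's TMM scaling, summed over the Leydig-like cells of a library.

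**Figure D3:**
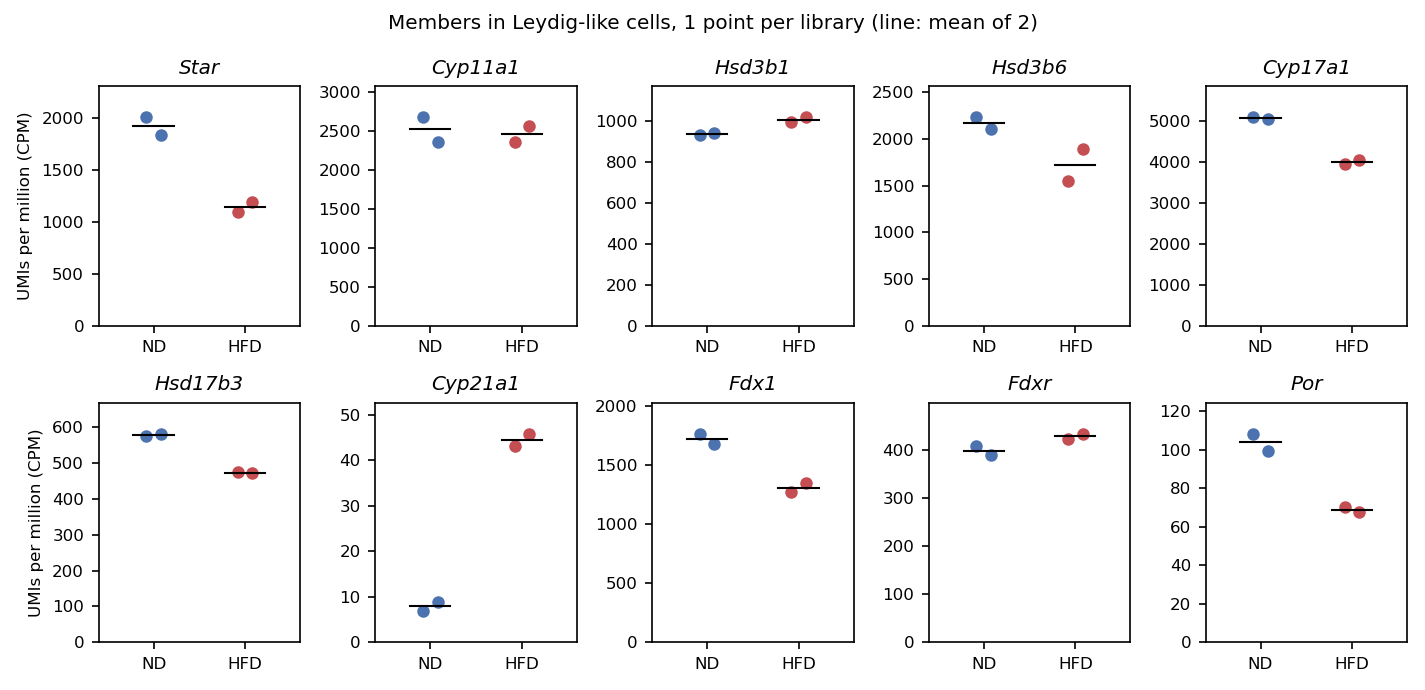
CPM of each member in Leydig-like cells, with 1 point per library, a line at the mean of 2 libraries and axes from 0. The HFD points of Star, Cyp17a1, Fdx1 and Por lie below both ND points, those of Cyp21a1 above, and the Cyp11a1 points overlap.

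Cholesterol import is the step that hormones from the pituitary set most quickly, and Star is the protein that brings cholesterol to the inner mitochondrial membrane. Star (ENSMUSG00000031574, chromosome 8, 25806555 to 25815982, protein coding) was at 1091 and 1186 CPM in HFD 1 and HFD 2, against 2004 and 1832 CPM in ND 1 and ND 2. Both HFD libraries lay below both ND libraries. Star fell from 1918 ± 121 CPM (SD, n = 2) to 1139 ± 67.3, a log2 ratio of -0.75 (edgeR adjusted p = 6.18e-06, SE 0.0835). Thinning to 3000 UMIs, here and below, left out cells with fewer UMIs. It kept 214, 225, 351 and 343 Leydig-like cells in HFD 1, HFD 2, ND 1 and ND 2. Of these, 79.0% and 82.7% in HFD 1 and HFD 2 had a Star UMI, against 96.3% and 96.2% in ND 1 and ND 2. Over all Leydig-like cells, without thinning, the shares were 80.6%, 83.9%, 91.3% and 93.0%. In thinned round-spermatid-like cells they were 0.371% to 0.645%. The exact two-sided permutation p for the thinned shares was 0.33, the smallest that 2 against 2 libraries allow.

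Cyp11a1, the enzyme that cuts the cholesterol side chain, acts next. Cyp11a1 (ENSMUSG00000032323, chromosome 9, 58006411 to 58027023) was at 2366 and 2571 CPM in HFD 1 and HFD 2, against 2680 and 2366 CPM in ND 1 and ND 2. A gene that overlaps Cyp11a1 on the same strand, Gm17322, had 2 to 4 UMIs in these cells per library. The diets overlapped, and the log2 ratio was -0.03 (edgeR adjusted p = 0.905, SE 0.0845). The genes for import and for cleavage, which act on the same cholesterol, thus had different ratios in the same cells, a difference between genes that was not itself tested.

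The 3-beta-hydroxysteroid dehydrogenases Hsd3b1 and Hsd3b6 carry out the same conversion. They lie side by side on chromosome 3, Hsd3b6 at 98805504 to 98814443 and Hsd3b1 at 98852194 to 98859794, both on the minus strand. Hsd3b1 was at 991 and 1016 CPM in HFD 1 and HFD 2, against 931 and 939 CPM in ND 1 and ND 2, a log2 ratio of 0.10 (edgeR adjusted p = 0.585, SE 0.0797). Hsd3b6 was at 1553 and 1894 CPM in HFD 1 and HFD 2, against 2229 and 2099 CPM in ND 1 and ND 2, a log2 ratio of -0.33 (edgeR adjusted p = 0.0519, SE 0.0902). Neither passed the test, although the diets did not overlap for either gene. The Hsd3b6 call turned on the processing, and it passed in some alternatives but not in others. It passed with doublets kept (-0.48) and with no low-count filter (-0.36). It also passed at a mitochondrial limit of 10%, with DESeq2, with the replicate block and in the larger cluster alone (each -0.33). Without HFD 2, which leaves a single HFD library, the ratio was -0.49. Over all genes, 1601 of 13292 were called with doublets kept, against 321 of 11913 in the main fit. With doublets kept, 13.2% to 31.9% of the class per library were cells outside the main Leydig-like class. Calls were 226 of 24839 with no filter, 354 of 11756 at the mitochondrial limit and 391 of 11913 with the block.

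The share of Hsd3b1 in the summed UMIs of the pair was 39.0% in HFD 1 (exact 95% binomial interval 37.5 to 40.4), 34.9% in HFD 2 (33.5 to 36.3), 29.5% in ND 1 (28.4 to 30.6) and 30.9% in ND 2 (29.8 to 32.0). These intervals cover counting error only. Both HFD shares lay above both ND shares. An exact permutation test of 2 against 2 libraries cannot go below 0.33, and no test of this share was made.

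Within single Leydig-like cells the pair tended to exclude each other. In thinned cells the Spearman rho between Hsd3b1 and Hsd3b6 UMIs was -0.39 in HFD 1 (214 cells), -0.33 in HFD 2 (225 cells), -0.30 in ND 1 (351 cells) and -0.29 in ND 2 (343 cells). The cells of a library share its depth and free RNA, and no p is given. No other pair of members had a rho under -0.11 in any library, and Cyp11a1 with Cyp17a1 had 0.31 to 0.47 in the same cells. Of cells with at least 5 UMIs of the pair, 44.0% and 42.9% in HFD 1 and HFD 2, and 51.0% and 47.5% in ND 1 and ND 2, had at most 20% Hsd3b1. A second set with at least 80% Hsd3b1 made up 23.5% and 15.6% in HFD 1 and HFD 2, and 11.5% and 10.5% in ND 1 and ND 2. The HFD libraries were higher in this second set. The remaining cells lay between 20% and 80%, 32.5% and 41.5% of cells in HFD 1 and HFD 2, and 37.5% and 42.0% in ND 1 and ND 2. These sets are ranges of a per-cell value, not cell types.

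The 2 sets were compared in sums paired by library and without the pair itself, a comparison chosen after seeing the data. Of the 8 other members 2 were called, both higher in the Hsd3b1 set, where edgeR called 0.850% of all 6821 genes. Cyp11a1 was at 2644, 3121, 3406 and 3467 CPM in the Hsd3b1 set of HFD 1, HFD 2, ND 1 and ND 2 and at 2261, 2758, 2600 and 2362 CPM in the Hsd3b6 set, a log2 ratio of 0.34 (edgeR adjusted p = 0.000285). Cyp21a1 was at 65.3, 58.1, 13.4 and 37.6 CPM in the Hsd3b1 set and at 27.6, 43.6, 1.98 and 2.09 CPM in the Hsd3b6 set, a log2 ratio of 1.31 (edgeR adjusted p = 0.0262). The ND values of Cyp21a1 rest on a few UMIs, since all Leydig-like cells of ND 1 and ND 2 held 15 and 20. Star did not pass the test (-0.01, edgeR adjusted p = 0.992). Macrophage genes such as C1qc (-4.22) were higher in the Hsd3b6 set, and their part in these results was not tested.

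**Figure D4:**
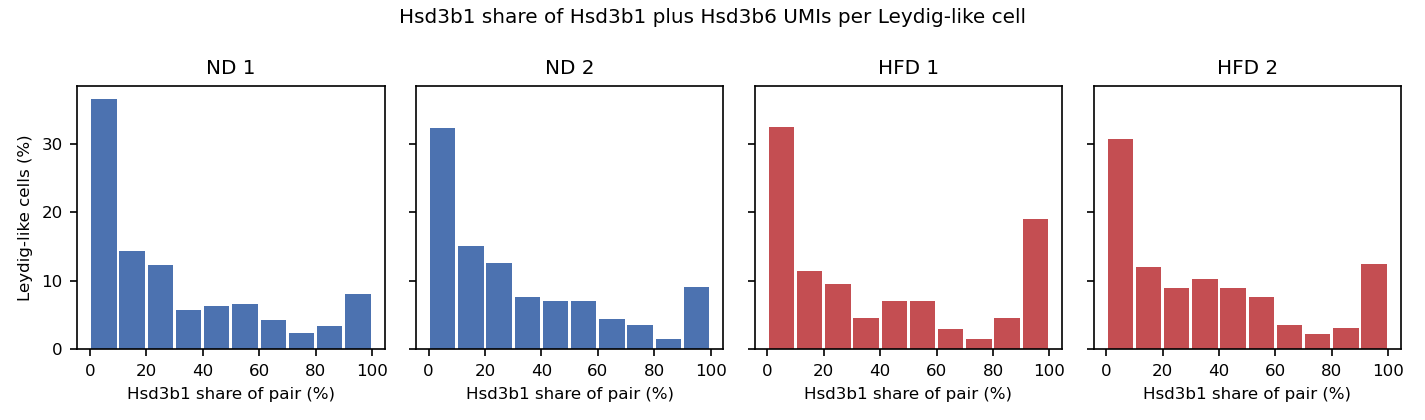
Distribution over Leydig-like cells (% of cells with at least 5 UMIs of the pair) of the Hsd3b1 share of Hsd3b1 plus Hsd3b6 UMIs, in bins of 10%, for each library. The lowest bin holds 30.8% to 36.7% of cells in every library, and there is a second, smaller peak at the high end, which is larger in HFD 1 and HFD 2.

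The pair's transcripts were 78.2% identical over their whole length and 66.6% over their last 300 bases. The 3′ chemistry targets that end, but the counts hold no read positions. No window of 50 bases in that end of Hsd3b1 occurred in Hsd3b6. Of the related genes, Hsd3b2 had 2 UMIs in Leydig-like cells of ND 1 and 0 in the other 3 libraries, and Hsd3b3 had 0 in each. The 250 bases upstream of each gene's start (RefSeq, GRCm38.p6) are shown because the cells differ in the balance of the pair. Capitals mark every run of at least 7 bases found in both. How many such runs unrelated sequences of this length share was not counted.
Hsd3b1, chr3:98859795-98860044, minus strand: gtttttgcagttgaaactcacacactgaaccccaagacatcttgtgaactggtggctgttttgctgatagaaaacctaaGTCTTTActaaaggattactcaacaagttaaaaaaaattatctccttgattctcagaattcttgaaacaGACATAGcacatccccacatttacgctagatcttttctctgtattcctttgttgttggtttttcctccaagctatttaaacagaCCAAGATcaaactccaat
Hsd3b6, chr3:98814444-98814693, minus strand: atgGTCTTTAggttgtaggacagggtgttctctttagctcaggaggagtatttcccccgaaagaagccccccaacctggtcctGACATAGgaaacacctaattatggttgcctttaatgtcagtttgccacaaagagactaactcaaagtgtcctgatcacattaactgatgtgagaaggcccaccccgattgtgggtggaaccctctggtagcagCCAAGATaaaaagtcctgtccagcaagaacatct
The promoters were 49.3% identical in a global alignment, and their longest common run was 7 bases.

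The table of promoters held 7 of the members, with 8 start sites: Cyp11a1, Fdx1, Fdxr, Hsd17b3, Hsd3b1, Hsd3b6 and Por. An orphan nuclear receptor site, CAAGGTCA, and a cAMP response element, TGACGTCA, were searched on both strands of these 250 bases. Neither was found in a member's window. The first occurred in 1.33% and the second in 1.55% of all 32851 promoters of the same length.

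Cyp17a1 turns progestins into androgens through its hydroxylase and lyase activities. Cyp17a1 (ENSMUSG00000003555, chromosome 19, 46667165 to 46673172) was at 3967 and 4044 CPM in HFD 1 and HFD 2, against 5097 and 5045 CPM in ND 1 and ND 2. The HFD libraries were the lower, with no overlap. It fell from 5071 ± 36.5 CPM (SD, n = 2) to 4005 ± 54.5, a log2 ratio of -0.34 (edgeR adjusted p = 0.0176, SE 0.0782). Without ND 1 the ratio was -0.34 (edgeR, adjusted p = 0.112) and without ND 2 -0.35 (edgeR, adjusted p = 0.0620), so the call was lost without either library.

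Hsd17b3, which makes testosterone from androstenedione, was at 473 and 471 CPM in HFD 1 and HFD 2, against 574 and 580 CPM in ND 1 and ND 2. The libraries of a diet were close to each other and the diets did not overlap, but the log2 ratio of -0.29 (SE 0.0831) missed the threshold (edgeR, adjusted p = 0.0632). It passed with doublets kept (-0.40). Without HFD 2, which leaves a single HFD library, the ratio was -0.29. With doublets kept 1601 of 13292 genes were called, against 321 of 11913 in the main fit. The gene (ENSMUSG00000033122) lies on chromosome 13, 64058266 to 64089230.

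Cyp21a1 was the member that rose. It encodes the 21-hydroxylase, known mainly from the adrenal cortex, where it makes precursors of corticosterone and aldosterone. Cyp21a1 (ENSMUSG00000024365, chromosome 17, 34801348 to 34804561) was at 43.1 CPM in HFD 1 and 45.8 in HFD 2, against 6.82 in ND 1 and 8.95 in ND 2. Both HFD libraries lay far above both ND libraries. It rose from 7.89 ± 1.5 CPM (SD, n = 2) to 44.4 ± 1.93, a log2 ratio of 2.48 (edgeR adjusted p = 7.77e-07, SE 0.241). These values rest on 73 and 69 UMIs in HFD 1 and HFD 2, and 15 and 20 in ND 1 and ND 2.

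The Cyp21a1 UMIs came from many cells, though unevenly. Of the Leydig-like cells kept and thinned to 3000 UMIs, 9.81% in HFD 1 and 12.9% in HFD 2 had one, against 1.14% in ND 1 and 1.75% in ND 2. Over all Leydig-like cells, without thinning, the shares were 13.7%, 14.2%, 3.39% and 3.60%. In thinned round-spermatid-like cells the share was 0.041% to 0.184%, and their median depth was 11127 to 13269 UMIs, against 5662 to 6823 in Leydig-like cells. The most UMIs in a cell was 14, in HFD 1, a sizeable part of the Cyp21a1 UMIs of that library's Leydig-like cells. In the 2 HFD libraries the 21 and 29 thinned cells with Cyp21a1 held on average 11.9 and 12.8 Cyp17a1 UMIs, and the cells without it held 12.7 and 12.8.

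Markers of adrenal cortex were looked at beside this result. In Leydig-like cells Cyp11b1 had 1 UMI in HFD 1 and 0 in the other 3 libraries, and Cyp11b2 and Mc2r had 0 in every library. The other 4 of the 7 adrenal markers, Mgarp, Mrap, Hao2 and Akr1b7, had UMIs in all 4 libraries. The list summed to 821 and 853 CPM in HFD, and to 921 and 941 CPM in ND, mostly from Mgarp, Mrap and Hao2. Akr1b7 was at 2.97 and 10.5 CPM in HFD 1 and HFD 2, and 6.17 and 1.32 CPM in ND 1 and ND 2. The part of adrenal cells in the Cyp21a1 result was not tested. The pseudogene Cyp21a2-ps had 0 UMIs in Leydig-like cells. Cyp21a1 had 0 UMIs in 365 macrophage-like and 399 fibroblast-like cells, which by 3 counts over each class allows up to 2.60 and 2.59 CPM for counting error alone, against 6.61 to 45.3 CPM over the libraries of Leydig-like cells before TMM scaling.

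The electron carriers come last. Fdx1 (ENSMUSG00000032051, chromosome 9, 51943306 to 51963556) was at 1272 and 1348 CPM in HFD 1 and HFD 2, against 1765 and 1682 CPM in ND 1 and ND 2. The HFD libraries were lower without overlap. Fdx1 fell from 1723 ± 58.6 CPM (SD, n = 2) to 1310 ± 54.1, a log2 ratio of -0.40 (edgeR adjusted p = 0.00834, SE 0.0803). Without ND 1 it was -0.36 (edgeR, adjusted p = 0.0839).

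Fdxr (ENSMUSG00000018861, chromosome 11, 115268024 to 115277050) was at 423 and 433 CPM in HFD 1 and HFD 2, against 408 and 388 CPM in ND 1 and ND 2. Its log2 ratio of 0.10 (SE 0.0858) did not pass the test (edgeR, adjusted p = 0.608). Por (ENSMUSG00000005514, chromosome 5, 135670033 to 135735326) was at 70.2 and 67.7 CPM in HFD 1 and HFD 2, against 108 and 99.4 CPM in ND 1 and ND 2. Por fell from 104 ± 6.31 CPM (SD, n = 2) to 69.0 ± 1.78, a log2 ratio of -0.59 (edgeR adjusted p = 0.0127, SE 0.128). Without ND 1 it was -0.53 (edgeR, adjusted p = 0.131), and in thinned cells -0.57 (edgeR, adjusted p = 0.103).

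How Leydig-like cells were defined mattered to the 4 falls. When clustering used the steroid genes too, 2 members were called, Star and Cyp21a1, and with the marker gate only Cyp21a1 was. The log2 ratios of the falls were no smaller there. With the gate Star was at -0.94, Cyp17a1 at -0.52, Fdx1 at -0.55 and Por at -0.78. With the steroid genes Cyp17a1 was at -0.48, Fdx1 at -0.51 and Por at -0.75. Hsd3b1 and Fdxr, each at 0.10 and not called in the main fit, moved down with the gate as well, to -0.093 and -0.079. Calls over all genes also fell, from 321 of 11913 to 105 of 12289 with the steroid genes and 30 of 12730 with the gate. The gate took 316 cells in HFD 1, of which 27.8% were not Leydig-like by clusters, against 1.51% to 5.17% in the other 3 libraries. The summed elongating spermatid markers of the gated cells were 9468 CPM in HFD 1 and 4842 to 6134 CPM in the others. In the clustered class they were 7222 and 4811 CPM in HFD 1 and HFD 2, and 5410 and 6078 CPM in ND 1 and ND 2, and their part in the results was not tested. In the larger Leydig-like cluster alone, an alternative chosen after seeing the data, the 5 calls held and Hsd3b6 passed too (-0.33, edgeR adjusted p = 0.0442), where 3.06% of all genes were called.

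The other genes of the pathway came from a list of 65. In Leydig-like cells 40 were tested, 5 were called lower, 1 was called higher and 34 did not pass, with a median log2 ratio of -0.0861. Over all genes tested 1.53% were called lower and 1.17% higher, with a median of -0.0034. Of 13 genes of cholesterol delivery, 2 were called lower: Soat1, which stores cholesterol as esters, at 285 ± 9.37 CPM (SD, n = 2) in ND and 187 ± 24.4 in HFD, a log2 ratio of -0.61, and Npc2, which releases cholesterol from lysosomes, at -0.42. Of the 8 tested other enzymes, Srd5a1, a steroid 5-alpha-reductase, fell by 1.43 on the log2 scale (16.9 to 6.23 CPM) and Hsd17b7 by 0.79. Sult1e1, a sulfotransferase that acts on estrogens, rose from 469 ± 1.90 to 701 ± 53.5 CPM, a log2 ratio of 0.58. Cyb5r3, an electron carrier to cytochrome b5, fell by 0.37. Of 15 tested regulators 0 were called, and Nr5a1, the nuclear receptor that drives many genes of this pathway, had a log2 ratio of 0.01, and the receptor gene Lhcgr -0.03.

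In the sum over all cells of a library the diets differed at 9 of the 10 members. Star (log2 ratio -1.14), Hsd3b6 (-0.83), Cyp17a1 (-0.83), Hsd17b3 (-0.77), Cyp11a1 (-0.51), Por (-0.39), Hsd3b1 (-0.38) and Fdxr (-0.16) fell, and Cyp21a1 rose (0.90). In this comparison 34.5% of all 25475 genes were called by edgeR (19.0% lower, 15.5% higher). Fdx1 had 199, 193, 192 and 197 CPM in HFD 1, HFD 2, ND 1 and ND 2, a log2 ratio of 0.01 (edgeR adjusted p = 0.822, SE 0.0383). In such sums fewer Leydig-like cells and less RNA per cell cannot be told apart. The Fdxr call was lost without HFD 2 (-0.12), without ND 1 (-0.16) and without ND 2 (-0.17), each by edgeR, and also with DESeq2 (-0.14), with RLE size factors (-0.15) and with no low-count filter (-0.17).

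With Leydig-like cells left out, 1 of 10 members was called, Por, where 29.7% of all genes were (16.5% lower, 13.2% higher). Por fell by 0.25 on the log2 scale (edgeR, adjusted p = 0.0190). Star was then at -0.21 (edgeR, adjusted p = 0.102), Cyp11a1 at -0.02 and Cyp21a1 at 0.04.

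**Figure D5:**
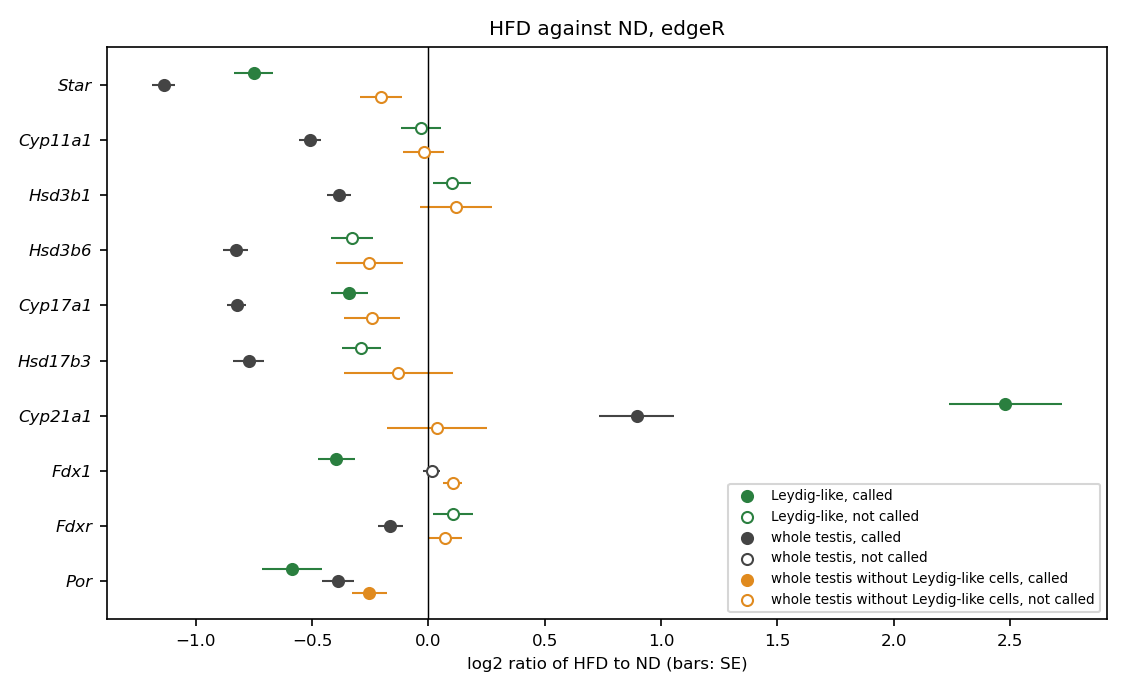
Log2 ratio of HFD to ND with its SE (bars) for each member in Leydig-like cells (green), the whole testis (grey) and the whole testis without Leydig-like cells (orange). Filled points passed the edgeR test. Cyp11a1 and Hsd3b1 lie near 0 in Leydig-like cells and below 0 in the whole testis, and Cyp21a1 is the single member far to the right.

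Outside Leydig-like cells, 2 of 10 members were called between the diets in spermatocyte-like cells, both lower. Cyp17a1 was at 2.59 and 2.85 CPM in HFD 1 and HFD 2, against 3.64 and 5.08 CPM in ND 1 and ND 2 there, a log2 ratio of -0.69 (edgeR, adjusted p = 0.0118), and Por had -0.42 (edgeR, adjusted p = 0.0275). In this class 16.1% of all genes were called, 7.46% lower in HFD. Cyp17a1 was as low in round-spermatid-like cells (3.80 CPM on average), and the summed Leydig markers of spermatocyte-like cells were 17.5, 17.5, 17.8 and 21.2 CPM in the same order of libraries. Their part in the result was not tested. For Por, the cluster with its highest level made up 7.86% and 7.74% of the class in HFD 1 and HFD 2, and 12.3% and 10.8% in ND 1 and ND 2. Without that cluster Por was at 3.37, 3.13, 4.37 and 3.98 CPM, against 3.84, 3.42, 5.33 and 4.72 CPM with it on the same unscaled basis. The part of that cluster's share in the Por result was not tested. In cells thinned to 3000 UMIs both calls were lost at log2 ratios of -0.67 for Cyp17a1 and -0.69 for Por, and that of Por was lost also without HFD 2 (-0.33) and without ND 1 (-0.33). In the other classes fewer members had enough UMIs: 4 were tested in Sertoli-like, 1 in macrophage-like, 1 in lymphocyte-like, 2 in fibroblast-like, 10 in round-spermatid-like and 9 in elongating-spermatid-like cells. None of these was called by edgeR, where 0.0765%, 2.96%, 0.120%, 0.00%, 1.66% and 3.54% of all genes were, in that order.

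Whether a member's diet ratio differed between Leydig-like cells and another class was tested as an interaction in 37 combinations of member and class, and 4 were called. Each library gave a sum to both classes, but these fits had no library term. The pairing within libraries was therefore not used, and the sums were treated as independent. The Fdx1 ratio was lower in Leydig-like cells by 0.36 against spermatocyte-like cells (difference of log2 ratios -0.36, SE 0.0760; edgeR, adjusted p = 0.0326), and the differences were -0.38 against round-spermatid-like (edgeR, adjusted p = 0.0160) and -0.66 against elongating-spermatid-like cells (edgeR, adjusted p = 5.21e-05). In elongating-spermatid-like cells Fdx1 was at 66.4, 63.6, 57.1 and 58.1 CPM in HFD 1, HFD 2, ND 1 and ND 2. The fourth was Cyp21a1 against round-spermatid-like cells, a difference of 2.91 (edgeR, adjusted p = 0.00314). Over all genes, 0.217%, 0.486% and 0.473% were called in the tests against spermatocyte-like, round-spermatid-like and elongating-spermatid-like cells. In the tests against Sertoli-like, macrophage-like, lymphocyte-like and fibroblast-like cells 0.0384%, 0.284%, 0.00% and 0.00% of all genes were called and no member was. The Fdx1 differences there were -0.54, -0.60, -0.29 and -0.64, in that order. All 4 calls were lost without HFD 1, and 2 calls were left without HFD 2 and without ND 1.

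The genes most like each member were taken by the Pearson correlation of log2(CPM + 1) over 32 sums, 8 classes in 4 libraries. Each coefficient mostly reflects the contrast of Leydig-like cells with the rest, and the sums of a library share its depth. Star was closest to Agt (0.979), Bhmt (0.968) and Akr1cl (0.968). Cyp17a1 was closest to Insl3 (0.983), Lcn2 (0.978) and Apoc1 (0.978), Cyp11a1 to Slc39a5 (0.963), Hsd3b1 to Lcn2 (0.978), Hsd3b6 to Cyp17a1 (0.971) and Hsd17b3 to Gnmt (0.971). Cyp21a1 was closest to Col11a1 (0.959) and Fetub (0.958). For the electron carriers the closest were Me1 for Fdx1 (0.973), Polr2l for Fdxr (0.947) and Mr1 for Por (0.931).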

How the data were processed

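The authors deposited UMI counts of 4 libraries, unnormalized, as matrices of genes by barcodes whose headers carry the software version 3.0.2, and the genome build is mm10 per the submitters' processing notes. The aligner's settings are not given in the sources used here. Total counts were 143748262 to 154221188 UMIs per library. All 55450 features matched GENCODE M21 (GRCm38) by identifier and symbol.

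Barcodes under 200 genes or over 20% mitochondrial UMIs were dropped, and 388 to 888 barcodes per library were removed as doublets with Scrublet in scanpy 1.11.5. Clustering used 2000 variable genes without 71 steroid genes, 30 components, 15 neighbours and Leiden resolution 1. Clusters were named from marker lists. UMI counts were summed per library and class and tested with edgeR 4.0.16 (quasi-likelihood, TMM, filterByExpr, Benjamini-Hochberg over all genes, threshold 0.05). DESeq2 1.42.0 was an alternative. These steps were tested on simulated data. Between replicate libraries the chi-square p was under 0.05 at 24.6% (HFD) and 25.3% (ND) of genes. The libraries were kept apart.

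All 10 members are named. Other pathway genes are named, up to 5 per direction, where called in Leydig-like cells with no overlap of the diets, and like genes are the 3 with the highest correlation. The members, lists and tests were chosen with earlier results of these data known. Alternatives covered clustering, class definition, mitochondrial limit, doublets, depth, test, scaling, filter, replicate block and each library.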

Additional observations from a re-analysis of the deposited data

Results flagged for a closer look

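The diet ratio of Fdx1, the ferredoxin of mitochondrial P450 enzymes, differed between Leydig-like cells and 3 germ cell classes. As above, the interaction test had no library term. The difference of log2 ratios (Leydig-like minus the other class) was -0.36 against spermatocyte-like, -0.38 against round-spermatid-like and -0.66 against elongating-spermatid-like cells, each past the threshold of edgeR's interaction test. Without HFD 1 the same differences were -0.39, -0.31 and -0.62 and none was past the threshold. The call against spermatocyte-like cells was also lost without ND 1 (-0.31), and that against round-spermatid-like cells without HFD 2 (-0.48). With all libraries, the Fdx1 differences against Sertoli-like, macrophage-like, lymphocyte-like and fibroblast-like cells were -0.54, -0.60, -0.29 and -0.64. None of these was past the threshold.

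The diet ratio of Cyp21a1 was higher in Leydig-like than in round-spermatid-like cells by 2.91 on the log2 scale, also past the threshold of edgeR's interaction test. Left out in turn, HFD 1, HFD 2 and ND 1 gave 2.59, 3.30 and 2.49, none past the threshold, and ND 2 gave 3.31, which was. Round-spermatid-like cells held 8, 13, 19 and 14 Cyp21a1 UMIs in HFD 1, HFD 2, ND 1 and ND 2, so this side of the comparison is measured on few UMIs.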

How the results depend on the processing

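Among single members in Leydig-like cells, the whole testis and spermatocyte-like cells and in the called interactions, 244 of 310 recomputed values kept their direction and side of the threshold, 42 lost a call, 9 gained one and 15 changed sign. The 5 calls in Leydig-like cells became 2 when clustered with the steroid genes, 2 at Leiden resolution 2 and 1 with the marker gate, and 2 to 7 when a library was left out (2 without ND 1). The log2 ratios of the lost calls were -0.94 for Star, -0.52 to -0.34 for Cyp17a1, -0.55 to -0.36 for Fdx1 and -0.78 to -0.53 for Por. Calls over all genes went from 321 to 105, 55 and 30 with the steroid genes, at resolution 2 and with the gate. They moved in the fits without a library as well. Among those fits, calls over all genes were most frequent without HFD 2 and least frequent without ND 1. The most and the fewest members were called in the same fits. The sign changed for Hsd3b1 when clustered with the steroid genes (-0.049), at resolution 2 (-0.076), with doublets kept (-0.025) and with the gate (-0.093), and for Fdxr in the same order (-0.030, -0.052, -0.020, -0.079). Without a library Cyp11a1 was at -0.12 to 0.058, above 0 without HFD 1 and without ND 1. DESeq2 called 4 members in Leydig-like cells and gave no adjusted p for Cyp21a1 and Por. It called 104 of the 1242 genes with an adjusted p. The cause of these shifts was not tested.

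In the whole testis 9 calls became 1 without Leydig-like cells, where Hsd3b1 was at 0.12 and Fdxr at 0.070, and 8 or 9 without a library. Whole-testis Fdx1 was at -0.13 in thinned cells (called lower) and at -0.0081 to 0.037 without a library. The share of Leydig-like cells had a log2 ratio of -0.42 when clustered with the steroid genes, -0.38 at resolution 2 and -0.38 with the gate, not past the threshold in these 3, and -0.63 to -0.52 without a library (edgeR adjusted p = 0.0591 without ND 1).

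Of the other classes, macrophage-like cells had 1 call in place of 0 with no low-count filter (Cyp11a1), where 164 of 19112 genes were called. Spermatocyte-like cells had 0 members called in place of 2 in thinned cells and with no filter, and 1 with DESeq2. Calls over all genes there were 817 of 13172, 1106 of 33851 and 1769 of 10225, in that order, against 3100 of 19290 in the main fit. Hsd3b6 was called lower there with the steroid genes, at resolution 2 and with the block. Whether Hsd3b6 and Cyp11a1 were called there also depended on the library left out. With the steroid genes 4633 of 17233 genes were called in spermatocyte-like cells. The counts were 3207 of 18181 at resolution 2 and 4145 of 19290 with the block. Elongating-spermatid-like cells had 1 member called in place of 0, Fdx1 higher, when clustered with the steroid genes and in thinned cells. In round-spermatid-like cells, whether any member was called depended on the library left out. The interactions had 0 to 5 calls without a library. Fits without a library set 1 library of a diet against 2, and in round-spermatid-like cells calls over all genes moved in them as well. In elongating-spermatid-like cells 713 of 15609 genes were called with the steroid genes and 1654 of 11999 in thinned cells. In the main fit 563 of 15910 were. Thinned macrophage-, lymphocyte- and fibroblast-like cells were under 50 in a library and gave no value.

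Replicate numbers did not pair the libraries (correlation of same-numbered deviations -0.035 in Leydig-like cells and 0.080 in the whole testis). With the replicate block 6 members were called in Leydig-like cells, 9 in the whole testis, 3 in place of 2 in spermatocyte-like cells and 1 in place of 0 in round-spermatid-like cells (Hsd3b6). Over all genes the block called 391 of 11913, 10122 of 25475, 4145 of 19290 and 1082 of 19341, in that order. Without it 321, 8782, 3100 and 322 were called. Cyp21a1 and Por rest on 15 to 238 UMIs per library in Leydig-like cells, and the Por call was lost in thinned cells while that of Cyp21a1 was not.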

Other observations

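Leydig-like cells with mostly Hsd3b6 UMIs (at least 80% of the pair, 88, 96, 178 and 163 cells in HFD 1, HFD 2, ND 1 and ND 2) were compared with cells of mostly Hsd3b1 (47, 35, 40 and 36 cells) for genes outside the members, a comparison chosen after seeing the data. Without the pair itself, 58 of 6821 genes (0.850%) were called by edgeR, 18 higher in the Hsd3b1 cells and 40 higher in the Hsd3b6 cells. Genes named here were chosen after their values were seen. Sult1e1, the sulfotransferase that also rose in HFD, was at 1095, 977, 819 and 654 CPM in the Hsd3b1 cells of HFD 1, HFD 2, ND 1 and ND 2 and at 523, 640, 396 and 373 CPM in the Hsd3b6 cells, a log2 ratio of 0.90 (edgeR adjusted p = 3.35e-14, SE 0.0810). The potassium channel gene Kcnk3 (1.68) and the inhibin subunit gene Inha (1.29) were also higher in the Hsd3b1 cells.

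The macrophage genes C1qc (-4.22), C1qb (-2.73) and Lyz2 (-2.77) were higher in the Hsd3b6 cells, where C1qc reached 23.5 to 48.5 CPM. The part of RNA from macrophages in this comparison was not tested.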
